A study of Cubamyces sp. BRFM 1775 with 14 samples.

Results

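Pine, a softwood, was set against wheat straw, a grass, as the growth substrate of Leiotrametes sp. BRFM1775. The comparison is the pine column minus the wheat straw column of the deposited table. It was made for every gene of the table: 280 that passed the test described below and 772 that did not. How the genes of the table were chosen is not given, so "all genes" below means these and not the whole genome. The comparison draws on 5 of the 14 labelled samples, 3 on pine and 2 on wheat straw. All 5 are mycelium of strain BRFM1775 collected on day 3, at 30 °C and 120 rpm. The pine cultures held sifted pine wood particles below 2 mm at 15 g/l, and the wheat straw cultures held straw particles below 2 mm at 15 g/l. Both held 2.5 g/l maltose in the same 100 ml mineral medium, so added sugar and solid load did not differ between them. Aspen, a hardwood, as well as cellulose and maltose alone serve below as further levels for the same genes. The maltose cultures held 20 g/l maltose and no solid. The cellulose cultures held Avicel at 15 g/l with 2.5 g/l maltose, and the aspen cultures 15 g/l of wood with a maltose amount that the labels misprint. The labels do not say whether replicates were separate flasks, so the spread behind each p-value is that between libraries and could be technical.

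Fungi of the order Polyporales include many white rots, which secrete carbohydrate-active enzymes and oxidoreductases that take apart cellulose, hemicellulose and lignin. The walls that these substrates offer are built differently. Softwood carries lignin made mainly of guaiacyl units, galactoglucomannan as its main hemicellulose, and resin. Grass straw carries arabinoxylan with ferulic and coumaric acid attached, a lignin of mixed units, and silica. The table identifies its genes by protein number of the MycoCosm portal and does not pair those numbers with names or products. The text therefore follows patterns of expression, gives 4 genes by number, and assigns no enzyme family. No sequences came with the table, and none is shown.

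The table gives 1 log2 mean per substrate, and the reads of single libraries were recovered from it as whole numbers. Reads were recovered in every pine library for 798 genes and in every wheat straw library for 1051. Of the 254 genes without pine reads, 245 stood above 12 on the deposited log2 scale, where recovery was not attempted. The median gene with recovered reads had 196, 201 and 205.5 reads in the pine libraries and 763 and 802 reads in the wheat straw libraries. These medians cover different genes, as those missing on pine were mostly abundant, so they do not compare depth. The size factors, which scale each library, were 0.71, 0.89 and 0.91 on pine and 1.27 and 1.40 on wheat straw. Libraries are numbered within a substrate by rising size factor, which says nothing of the replicate numbering in the labels. Pine library 1 stood apart. Over 798 genes its Pearson correlation was 0.955 with pine library 2 and 0.947 with pine library 3, which correlated at 0.987 with each other, while the wheat straw libraries correlated at 0.982. It held the highest of the 3 pine values for 430 of the 798 genes, and it lay above the mean of the other pine libraries by a median of 0.19 log2 units. The median SD between libraries was 0.30 on pine and 0.17 on wheat straw, in log2 units. Because genes are not independent replicates, these correlations only describe the libraries.

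Expression on pine and on wheat straw followed the same broad order of genes: single pine and wheat straw libraries correlated at 0.882 to 0.921, below the pairs from 1 substrate. Rises on pine outnumbered falls. A gene was called when its adjusted p from limma was below 0.05 and its difference was at least 1 log2 unit, that is 2-fold. By this rule 280 genes were called (26.6% of those tested). Of these, 196 were higher on pine (18.6% of all genes) and 84 were lower (7.98%). At an unadjusted p under 0.05 there were 517 genes. Counted without regard to p, 404 genes, or 38.4%, differed by less than 0.5 log2 units in either direction. Over all genes the difference, pine minus wheat straw, had a median of 0.22 with quartiles of -0.42 and 0.88.

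**Figure D1:**
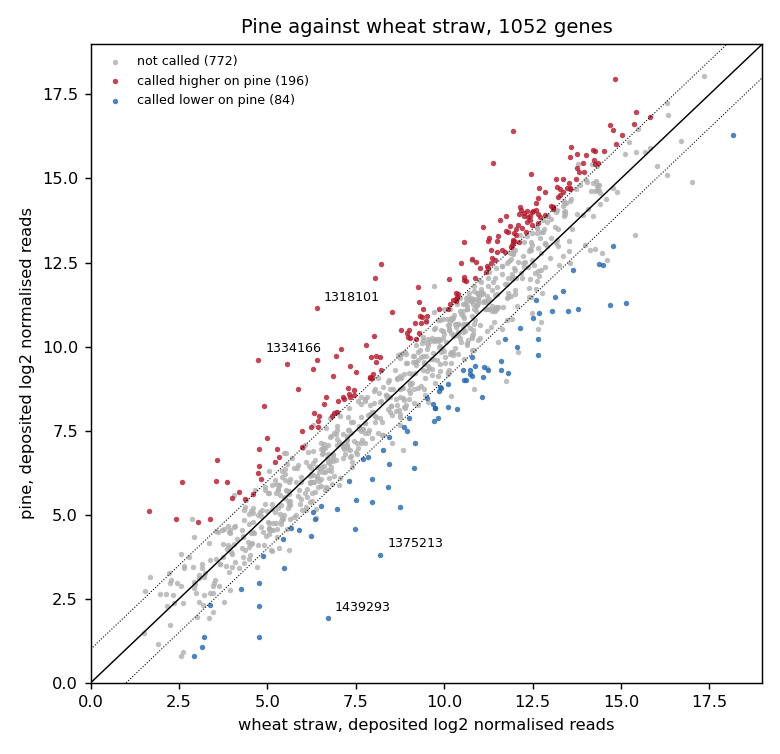
Deposited log2 normalised reads of each gene on pine (vertical axis) and wheat straw (horizontal axis). Red points are the 196 genes called higher on pine, blue points the 84 called lower, grey points the 772 not called; the solid line marks equal levels, the dotted lines a difference of 1, and the 4 genes described singly carry their numbers.

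The scaling between libraries moved this balance. With each library centred on its median over the genes recovered in every library, the median difference was 0.02 instead of 0.22, a level shift that all differences below share. Under that scaling 144 genes were called higher on pine and 119 lower, so that 54.8% of calls were higher, against 70% as deposited. After quantile normalisation 109 were higher and 99 lower, or 52.4% higher. Other scalings kept more of the balance. Moving each library by the median gap between its values and the averages of the genes gave 177 higher and 91 lower, or 66.0% higher. Scaling by column medians, chosen after seeing the data, gave 172 higher and 92 lower, or 65.2% higher. Rises outnumbered falls under each scaling, but the margin depended on the one used. All these scalings rest on genes of the table alone. Without pine library 1, on the 798 genes with recovered reads, 75 were called higher and 85 lower. With it, the same genes tested alone gave 91 higher and 76 lower, so the direction of the balance on them changed with that library.

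Most of the called differences were moderate. Among genes higher on pine the median difference was 1.47, and 159 lay between 2-fold and 4-fold, 23 between 4-fold and 8-fold, 9 between 8-fold and 16-fold, and 5 above that. Among genes lower on pine the median was -1.75, and 57 lay between 2-fold and 4-fold, 21 between 4-fold and 8-fold, 4 between 8-fold and 16-fold, and 2 beyond that. As deposited, the larger differences were therefore more evenly split between directions than the smaller ones: 37 genes were at least 4-fold higher and 27 at least 4-fold lower. That makes 57.8% higher, against 70% of all calls. Under other scalings 52.4% to 66.0% of all calls were higher, and the split by size was not counted there. A further 27 genes reached a 2-fold higher level on pine and 39 a 2-fold lower level without passing the adjusted p.

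Gene 1334166 showed the largest called difference. It had 377, 1015 and 718 reads in the pine libraries, against 40 and 29 reads in the wheat straw libraries. Every pine library lay far above both straw libraries, although the straw libraries were the more deeply read. On the log2(normalised reads + 1) scale the gene averaged 9.62 ± 0.55 on pine (SD, n = 3) and 4.73 ± 0.41 on wheat straw (SD, n = 2), a difference of 4.88 (SE 0.59, limma adjusted p = 0.000204). Its level was 8.25 on aspen, 12.93 on cellulose and 11.20 on maltose, so wheat straw gave the lowest value of the 5 substrates and pine did not give the highest. The cellulose libraries, at 14.13 and 11.74, spread most. For this gene the contrast with pine is one of a low level on straw.

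Gene 1318101 differed in another way, through a high level on pine. It had 3439, 1622 and 1166 reads in the pine libraries, against 152 and 80 reads in the wheat straw libraries. The groups did not overlap, and pine library 1 was the highest of the pine libraries. The gene averaged 11.14 ± 0.99 on pine (SD, n = 3) and 6.39 ± 0.74 on wheat straw (SD, n = 2), a difference of 4.75 (SE 0.46, limma adjusted p = 5.94e-05). That SE uses a spread shared with the aspen, cellulose and maltose libraries, whose SDs were 0.06, 0.009 and 0.13. With only pine and wheat straw libraries in the fit, the limma adjusted p was 0.00627. Without pine library 1 the difference was 4.19. The level was 8.68 on aspen, 5.60 on cellulose and 7.22 on maltose, which makes pine the highest of the 5 substrates. Against aspen the gene was higher on pine by 2.46 (SE 0.41, limma adjusted p = 0.0013).

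Gene 1439293 was nearly silent on pine. It had 3, 2 and 2 reads in the pine libraries, against 115 and 165 reads in the wheat straw libraries. No pine library came near the straw libraries, and with so few reads on pine the size of the difference depends on the constant added before the log. On the log2(normalised reads + 1) scale the gene averaged 1.92 ± 0.40 on pine (SD, n = 3) and 6.71 ± 0.27 on wheat straw (SD, n = 2), a difference of -4.78 (SE 0.42, limma adjusted p = 3.9e-05). With 32 normalised reads added in place of 1, the difference was -1.96 and the gene was still called. Aspen was as low as pine, with 2 reads in each of its 3 libraries and a mean of 1.51, whereas cellulose stood at 8.10 and maltose at 8.27. Pine minus aspen was 0.42 (SE 0.37, limma adjusted p = 0.38), which does not pass the threshold, and aspen minus wheat straw was -5.20 (SE 0.42, limma adjusted p = 3.35e-05).

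Gene 1375213 likewise had low values on both woods. It had 12, 7 and 15 reads in the pine libraries, against 392 and 379 reads in the wheat straw libraries. The straw libraries lay close together, and all pine libraries were well below them. The gene averaged 3.82 ± 0.58 on pine (SD, n = 3) and 8.18 ± 0.13 on wheat straw (SD, n = 2), a difference of -4.37 (SE 0.43, limma adjusted p = 5.94e-05). Its highest level was on cellulose, at 10.43, with maltose at 6.21 and aspen at 2.37. Pine exceeded aspen by 1.44 (SE 0.38, limma adjusted p = 0.0123). The aspen libraries had 5, 6 and 3 reads, so with few reads on both woods the size of this difference depends on the added constant. With 32 normalised reads added, the difference between pine and wheat straw was -2.82.

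**Figure D2:**
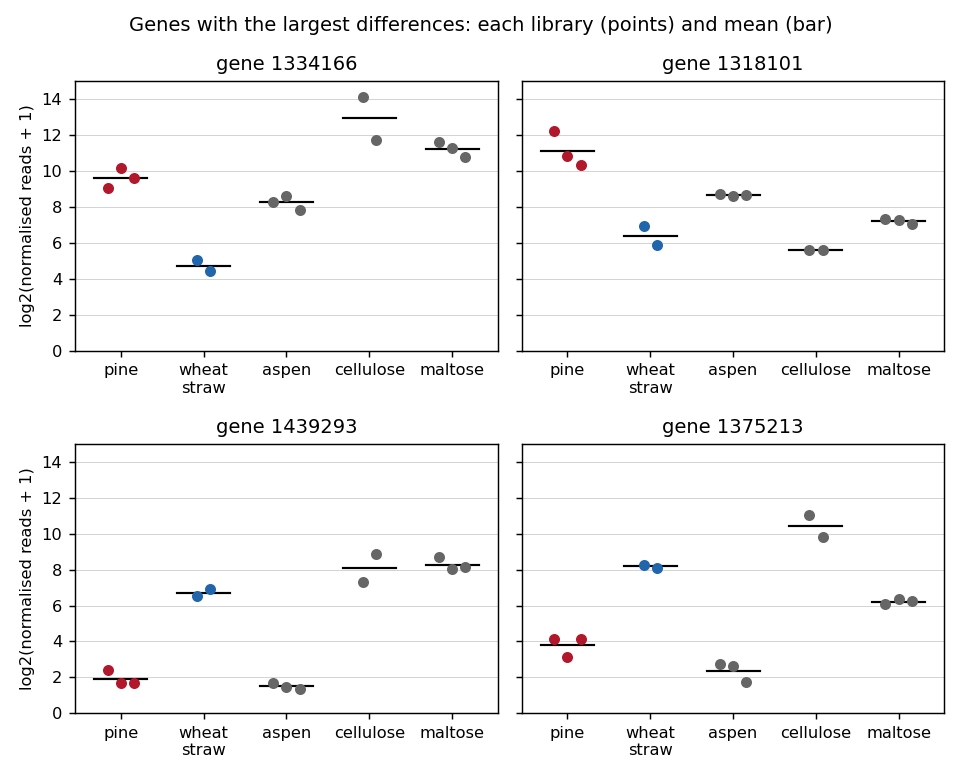
Log2(normalised reads + 1) of the 4 genes with the largest separated differences, in each recovered library (points) with the mean of the substrate (bar); pine in red, wheat straw in blue, the other substrates in grey. Genes 1334166 and 1318101 lie higher in all 3 pine libraries than in both wheat straw libraries, and genes 1439293 and 1375213 lie lower in all 3, with aspen also low for the pair.

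The 10 largest called rises on pine ranged from 3.32 to 4.88 and covered nearly the whole scale of expression. Their levels were 5.11 to 16.40 on pine and 1.66 to 11.95 on wheat straw. Pine gave the highest of the 5 substrates for 9 of them, and wheat straw the lowest for 3. Over all genes these shares were 33.6% and 10.8%, and the choice of large rises raises both counts. Reads were recovered on pine for 6 of the 10, and the libraries of these 6 did not overlap. The 10 largest falls ranged from -4.78 to -2.69, with levels of 1.36 to 11.30 on pine and 4.77 to 15.13 on wheat straw. All 10 had recovered reads and separated libraries. Pine was the lowest substrate for 6 of these 10 and aspen for 2, while wheat straw was the highest for 3. Over all genes these shares were 16.5%, 18.5% and 8.75%, and the choice of large falls raises the counts for pine and wheat straw. Libraries were separated for 59.9% of the 798 genes with recovered reads on both substrates. Choosing large differences raises the counts of separated genes among these rises and falls too. Some called genes lay near the detection floor. Of the 196 rises, 6 had at most 20 reads in each wheat straw library. Of the 84 falls, 11 had at most 20 reads in each pine library, genes 1439293 and 1375213 among them. The matching shares over all genes were not counted, so these counts only describe the sets. In libraries made from whole mycelium, fewer hyphae of a kind and less RNA per hypha cannot be told apart.

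Among the 798 genes with recovered reads on both substrates, 478 (59.9%) had pine libraries that did not overlap with the wheat straw libraries. Of those, 247 lay higher on pine and 231 lower. Separation of 3 libraries from 2 is thus common here and sets a low bar. All 91 called rises with recovered reads were separated, as were 75 of the 77 called falls. Calls and separation draw on the same libraries, so the choice of called genes raises these counts and they only describe the sets.

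The balance of rises and falls differed by the level of the gene. The genes were divided by their mean over the 5 substrates into 4 classes of 263. In the lowest class, the difference, pine minus wheat straw, had a median of -0.05, and 25 genes were called higher and 19 lower. The second class had a median of 0.07 with 41 higher and 26 lower, and the third a median of 0.23 with 40 higher and 26 lower. In the highest class, with mean levels of 11.23 to 17.35, the median was 0.72, and 90 genes were called higher on pine against 13 lower. That makes 87.4% of its calls higher, against 56.8% in the lowest class.

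In the highest class, aspen minus wheat straw had a median of -0.08, and pine minus aspen one of 0.65. No test between classes or woods was made. After quantile normalisation, which gives all libraries the same distribution of values, the highest class had 29 genes higher and 29 lower, and a median of 0.20. With median centring its split was 66 higher and 19 lower with a median of 0.52, while the medians of the other classes were -0.25, -0.13 and 0.03, so the sign in the second class changed. Only 39 of the 263 genes in this class had recovered pine reads, and they account for 6 of its 103 calls. For the remaining calls the spread came from other substrates, whose median SDs were 0.17 to 0.29 against 0.30 on pine. At pine levels of 10 to 12 the median SDs were 0.28 on pine and 0.14 on wheat straw. Over all classes, the median SE of the difference was 0.23 for genes without recovered pine reads and 0.30 for genes with them. The part of these gaps in the calls was not tested. Of all 196 rises, 105 fell on genes without recovered pine reads, as did 7 of the 84 falls. When the fit used only pine and wheat straw libraries with 1 common prior spread, these numbers were 99 and 15.

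**Figure D3:**
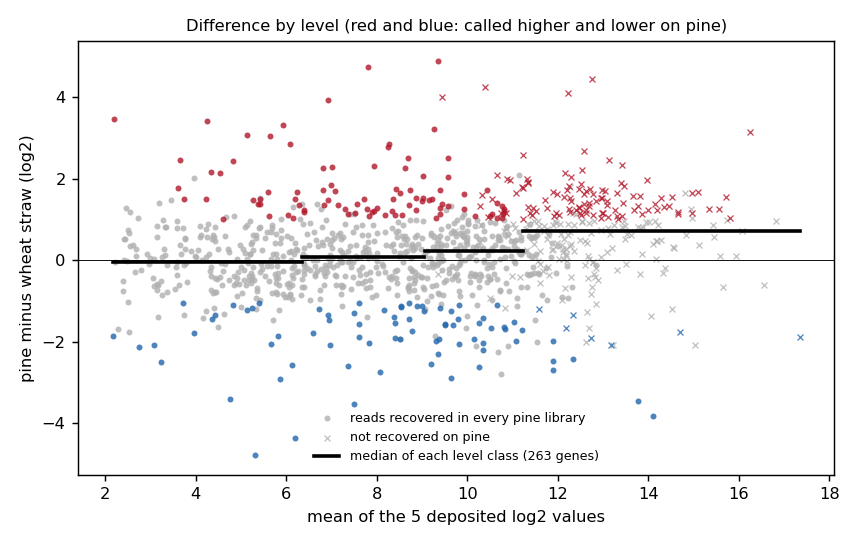
Difference in log2 units, pine minus wheat straw, against the mean of the 5 deposited log2 values for each gene; red and blue are genes called higher and lower on pine, circles have reads recovered in every pine library and crosses do not. Black bars give the median of each class of 263 genes: -0.05, 0.07, 0.23 and 0.72 from the lowest to the highest class.

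The most abundant transcripts were taken from each substrate in turn, and a ranking on pine values favours rises just as a ranking on wheat straw values favours falls. Of the 10 genes with the highest deposited values on pine, at 16.45 to 18.06, 6 were called higher on pine and 0 lower. Their differences from wheat straw ran from 0.57 to 3.15. The gene ranked second on pine carried the largest of these: it stood at 17.97 on pine and 14.82 on wheat straw, a difference of 3.15 (SE 0.21, limma adjusted p = 0.000633), with 16.63 on aspen. Of the 10 highest on wheat straw, at 15.81 to 18.18, 1 was called higher on pine and 1 lower. The gene called lower was the most abundant of all on straw, at 16.31 on pine and 18.18 on wheat straw, a difference of -1.88 (SE 0.43, limma adjusted p = 0.038). It was also high on maltose, at 18.33. Its reads were recovered on cellulose only, so that neither pine nor wheat straw libraries contributed to its spread, which rests on 1 residual degree of freedom and on the prior of the fit. The other genes of these lists had no recovered pine reads either, and 2 to 4 residual degrees of freedom. The lists of 10 shared 4 genes.

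On a linear scale, summed over all genes, the 196 genes called higher made up 48.1% on pine and 23.1% on wheat straw. The 84 genes called lower made up 2.40% on pine and 13.9% on wheat straw. These sums use means of logs and so do not stand for reads in a library, and the genes were chosen by this very difference.

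The levels on the 3 substrates that the comparison did not use show where each set of genes stood otherwise. The 196 genes called higher on pine had a median level of 12.37 on pine, 10.83 on wheat straw, 11.28 on aspen, 10.47 on cellulose and 9.91 on maltose. Pine was the highest of the 5 substrates for 151 of them (77.0%), gene 1318101 among them, and wheat straw the lowest for 43 (21.9%), gene 1334166 among them. Over all genes these shares were 33.6% and 10.8%. Since the genes were chosen for a higher value on pine than on wheat straw, these counts are raised by the choice and only describe the set. Maltose lay nearer to wheat straw than to pine for 169 of the 196, and cellulose for 157. Most genes of the table showed the same: maltose lay nearer to pine for 30.9% of all genes and 13.8% of the 196. For cellulose these shares were 33.2% and 19.9%.

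Set against the maltose cultures, 155 of the 196 genes were at least 2-fold above maltose on pine, and 60 were so on wheat straw. Over all genes the counts were 409 on pine and 291 on wheat straw, and among the 772 not called 231 and 192. The 60 lie within the 155 by construction, since each of the 196 genes was chosen for being at least 2-fold higher on pine than on wheat straw. The other 95 reached 2-fold over maltose on pine without reaching it on wheat straw. Of the 196, 20 were at least 2-fold below maltose on wheat straw but not on pine. Of these 20, 3 were at the same time at least 2-fold above maltose on pine. Over all genes, the counts that match the 95, 20 and 3 were 151, 41 and 3. These are counts of deposited means without a test, and both differences share the maltose libraries, whose sugar concentration also differs.

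The 84 genes called lower on pine had a median level of 8.19 on pine, 9.79 on wheat straw, 8.50 on aspen, 9.47 on cellulose and 8.16 on maltose. Pine was the lowest of the 5 substrates for 40 of them (47.6%), and wheat straw the highest for 28 (33.3%), counts that the choice of genes lower on pine raises in the same way. Over all genes these shares were 16.5% and 8.75%. On wheat straw 39 of the 84 were at least 2-fold above maltose, and on pine 23. In the other direction, 47 were at least 2-fold below maltose on pine and 20 on wheat straw. Over all genes, 291 were at least 2-fold above maltose on wheat straw and 409 on pine. In the other direction the all-gene counts were 154 on pine and 128 on wheat straw. By these limits 3 of the 84 genes were below maltose on pine and above it on wheat straw. The order of these counts follows from the choice of genes too.

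**Figure D4:**
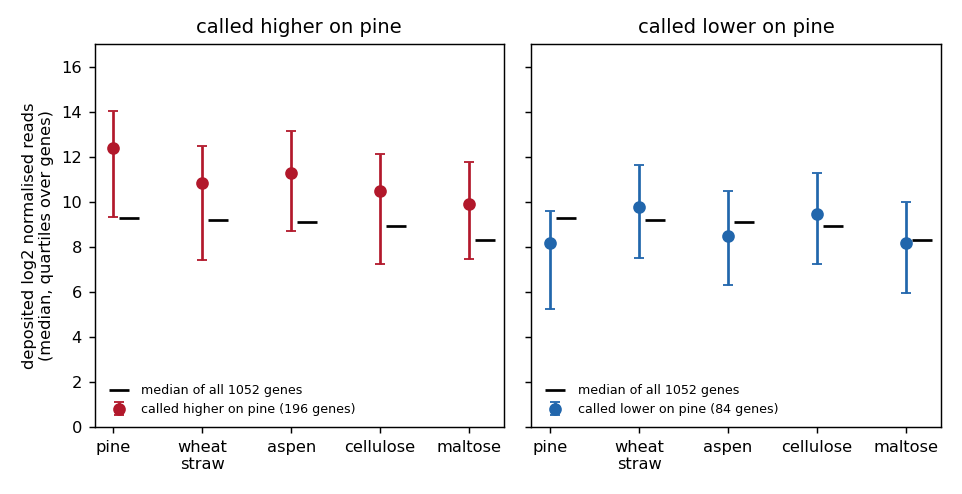
Median deposited log2 normalised reads over the 196 genes called higher on pine (left) and the 84 called lower (right), on each substrate, with bars from the lower to the upper quartile over genes; black dashes give the median of all genes. The first set stands at 12.37 on pine and 10.83 on wheat straw with aspen between them at 11.28, and the second at 8.19 on pine and 9.79 on wheat straw with aspen at 8.50.

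Aspen, the other wood, lay between pine and wheat straw for most called genes. Since the genes were chosen for a gap between pine and wheat straw, a further substrate tends to fall inside it. The positions below therefore only describe the sets. Over the 196 genes called higher on pine, the aspen value lay at a median of 0.39 of the way from wheat straw to pine, with quartiles of 0.08 and 0.71. It was nearer to pine for 83 genes (42.3%) and nearer to wheat straw for 113, which is the share found over all genes (42.3%). Over the 84 genes called lower, aspen lay at a median of 0.55 of the way to pine, with quartiles of 0.26 and 0.93, and was nearer to pine for 49 (58.3%). Aspen went beyond the pine value for 30 of the 196 genes and 15 of the 84. It went beyond the wheat straw value, away from pine, for 42 and 10.

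The comparisons that involve aspen share the pine or the wheat straw libraries with this one, and their values are given side by side only. For the 196 genes the median of pine minus wheat straw was 1.47, that of pine minus aspen 0.92, and that of aspen minus wheat straw 0.58. For the 84 genes the medians were -1.75, -0.78 and -0.93. Against the mean of aspen and wheat straw, 165 genes were called higher on pine (15.7%) and 64 lower (6.08%). After quantile normalisation the rises of this contrast numbered 89 and the falls 76. The aspen wood was milled to 1 mm, and its maltose amount is not known, so wood species, particle size and sugar cannot be told apart in the contrasts that include it.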

How the data were processed

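RNA from mycelium frozen with its remaining solid substrate was sequenced as paired reads, per the labels' protocols. The deposited table holds normalised log2 read counts, 1 column per substrate, per the file headers. TopHat2, HTSeq and DESeq (version 1.5) are named in the submitters' processing notes, with no role. Not given in the sources used here are the build, the added constant and how genes were chosen.

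Each deposited log2 value was modelled as an average, across libraries, of log2(reads × scale + 1). A search on the 16 lowest values of each column gave the scales, which were checked on its 60 lowest, not held out: all 60 came out whole within 1e-09 in every column, and 0 did with scales moved by 1%. This took 3 libraries for pine, aspen and maltose, and 2 for wheat straw and cellulose, 13 in all against 14 labelled samples. Reads were solved over the full range up to a log2 value of 6, and above it in a 16-fold and then a 256-fold range per library. Values above 12 in columns of 3 libraries were not attempted. A gene counted as solved where exactly 1 set of whole numbers matched. No pair of pine or of wheat straw libraries looked like 1 library repeated (lowest chi-square over degrees of freedom 12.9).

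Differences were tested with limma 3.58.1 in R 4.3.3 on log2(normalised reads + 1), which understates changes of low genes. All 13 libraries entered 1 fit, with the prior spread following the level and Benjamini-Hochberg adjustment over all genes of the table. Where the reads of a substrate were not solved, the deposited mean was kept and the spread came from the other substrates. Fit and recovery were tested on simulated data. The 2 genes named per direction have the largest called differences with solved, separated libraries. Planned lists by enzyme family could not be formed without names. Members and lists were chosen with earlier results of these data known. Alternatives covered scaling, the added constant, filters, thresholds, the prior and left-out libraries. Python 3.11.15, NumPy 2.4.6, numba 0.67.0 and matplotlib 3.10.9 were used.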

Additional observations from a re-analysis of the deposited data

How the results depend on the processing

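The 280 calls numbered between 208 and 292 under other scalings, priors, sets of libraries in the fit and a filter on values below 5. The 4 named genes kept direction and call under every setting run. With only pine and wheat straw libraries in the fit, their limma adjusted p lay between 0.00171 and 0.00627, weaker than in the main fit. Without a trend of the prior spread in that fit, their limma adjusted p lay between 0.0029 and 0.012. Quantile normalisation gave 109 rises, against 196 as deposited, and 89 against 165 for pine minus the mean of aspen and wheat straw. A minimum difference of 2 gave 64 calls, with 37 higher and 27 lower. On the genes with recovered reads on both substrates there were 167 calls, with 91 higher, because fewer genes were tested and most of those left out were abundant ones. On these genes leaving out each library in turn gave 114 to 174 calls, 61 to 105 of them higher and 51 to 85 lower, and the named genes' differences ran from 4.59 to 5.17, 4.19 to 5.27, -5.02 to -4.59 and -4.54 to -4.03. With 1 wheat straw library left, that library is assumed to vary like the others. Of the 280 calls, 228 remained with median centring and 188 after quantile normalisation. Scaling by column medians and the fit of pine and wheat straw without a trend were chosen after seeing the data, and gave 264 and 279 calls. Depth limits the genes with few reads, and the missing pine reads limit the abundant ones. No paired analysis was possible because the recovered libraries carry no replicate numbers of the labels.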
